A study of Mus musculus with 44 samples.

Results

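The lymphomas described here are the 9 with the highest combined level of 4 T cell and cytotoxic cell genes among 36 Eµ-myc lymphomas, and they are set against the 9 with the lowest level. The series held 44 arrays, 43 of lymphomas and 1 of a spleen, all from Eµ-myc mice. In these mice an immunoglobulin heavy chain enhancer drives a Myc transgene in B lineage cells, so the high-score lymphomas, the low-score lymphomas and every other array share it. Total RNA came from frozen lymphoma tissue or from pellets of dissociated cells, without a label for the route of each array. The labels give no treatment, age or sex for any lymphoma, and they do not say that each came from a different mouse, so p-values measure the spread between these samples.

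The 36 lymphomas were those left after D46, D53, D75, D78, D88, D117 and D163, which form a germinal centre group of 7, were set aside. The groups were chosen by measured expression on these same arrays. The score of a lymphoma was the mean of Nkg7, Ccl5, Cd3d and Cd3e, each taken as its difference from the mean of the 36 within the array set. Lymphomas up to D117 formed array set 1 and those with higher title numbers array set 2. Of the 9 high-score lymphomas 8 were in set 1 and 1 in set 2, and the same held for the 9 low-score lymphomas. The other 18 of the 36 lay between the groups, 14 in set 1 and 4 in set 2.

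T cells carry a receptor whose signal passes through the CD3 chains, and CD8 T cells and natural killer (NK) cells kill target cells with granzymes released from granules. Activated T and NK cells secrete interferon gamma, which raises genes of antigen presentation and of intracellular defence in the cells around them. In bulk RNA of a tumour the transcripts of host cells are measured together with those of the lymphoma.

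Some lymphomas stood apart. Lymphomas D55 and D121 had the lowest levels of the B cell receptor component gene Cd79a among the 18 lymphomas of both groups, 8.83 and 9.08, and high levels of several T lineage genes. The labels do not give the lineage of these 2 lymphomas, so it was not determined whether host cells or the lymphoma cells carried their T lineage transcripts. Over 8431 genes, which are not independent replicates, their profiles had a correlation of 0.845, the highest of all pairs of lymphomas, although they were in different array sets. Their Xist levels differed, 10.79 in D55 and 13.10 in D121. Lymphoma D59 had 11.24 for the fat cell hormone gene Adipoq and 10.20 for the collagen gene Col1a1, against at most 3.81 and 5.11 in the other 8 high-score lymphomas. In the low-score group the highest levels of these genes were 6.63 and 6.66, both in D35.

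The ranking was as follows, and it is a description because the score chose the groups. D52 had the highest score, 2.39, followed by D89 at 1.81, D59 at 1.68, D93 at 1.45 and D55 at 1.25. D83 had 1.22, D121 had 1.06, D70 had 0.76 and D85, the last inside the group, had 0.69. The next lymphoma outside it, D143, had 0.59. At the other end D98 was the last inside the low-score group at -0.74, next to D82 at -0.70 outside it. D72 and D43 both had -0.82, D80 had -0.83, D135 had -0.84, D34 had -1.11, D64 had -1.13, D107 had -1.14 and D35 had -1.54. The high-score group covered a wider span of scores than the low-score group, and the step at either limit was small.

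**Figure D1:**
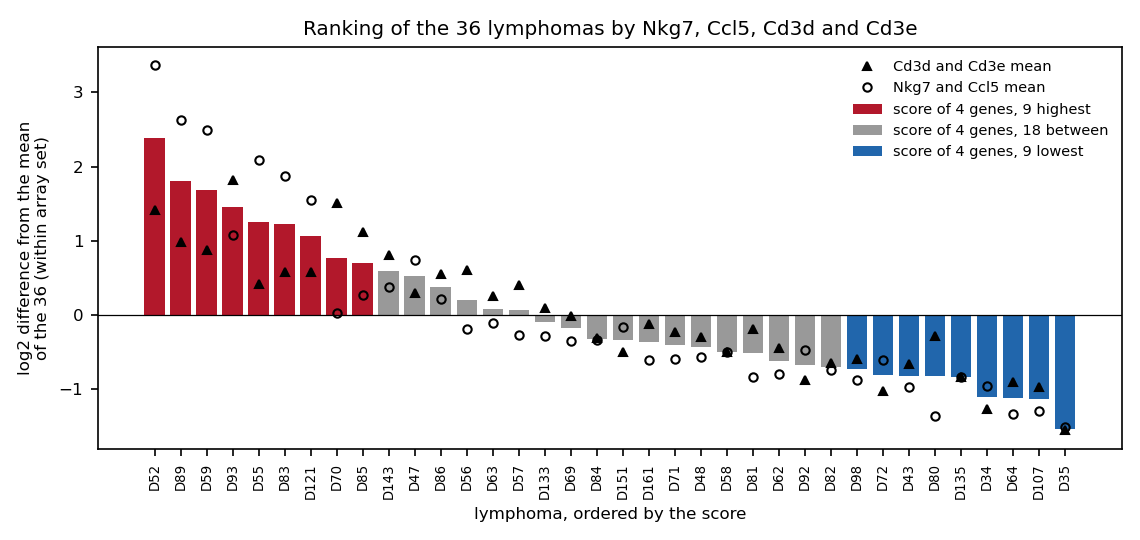
The 36 ranked lymphomas from the highest to the lowest score (horizontal axis); bars are the score of the 4 genes, triangles the mean of Cd3d and Cd3e and circles the mean of Nkg7 and Ccl5, all as log2 differences from the mean of the 36 within the array set. The 9 high-score lymphomas lie between 0.69 and 2.39 and the 9 low-score lymphomas between -1.54 and -0.74, and the triangle is above the circle in D93, D70 and D85 among the 9 highest.

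All levels in the text are deposited log2 values, with those of set 2 shifted per gene to the scale of set 1, and all differences are log2 differences, high-score minus low-score. Nkg7, a granule membrane protein gene of NK and cytotoxic T cells, had levels of 6.66, 7.69 and 9.30 (lowest, median, highest) in high-score lymphomas, against 5.23, 5.55 and 5.91 in low-score lymphomas. Ccl5, a chemokine gene of activated T cells, had 7.91, 10.59 and 11.97 in high-score and 5.96, 6.67 and 7.66 in low-score lymphomas. The CD3 chain genes Cd3d and Cd3e had medians of 8.95 and 7.40 in high-score lymphomas, against 6.07 and 6.38 in low-score lymphomas. The groups did not overlap for any of the 4 genes.

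The high-score lymphomas differed in which of the 4 genes carried their score. The mean of Nkg7 and Ccl5 lay 3.37 above the mean of the 36 in D52, 2.63 in D89, 2.49 in D59, 2.09 in D55, 1.87 in D83 and 1.55 in D121. It lay 1.08 above in D93, 0.27 in D85 and 0.02 in D70, so the last of these was near the average lymphoma for the cytotoxic genes. The mean of Cd3d and Cd3e lay 1.82 above in D93, 1.51 in D70 and 1.12 in D85. The name cytotoxic-cell-rich therefore fits the score as a whole but not every member: D70 and D85 stood high through the CD3 chains. Ranked by Cd3d and Cd3e alone, 7 of the 9 high-score and 7 of the 9 low-score lymphomas fell in the same groups. Ranked by Nkg7 and Ccl5 alone, 7 and 8 did.

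The comparison asked which other genes went with the score. With limma, 456 of 8427 tested genes (5.41%) were higher and 626 (7.43%) were lower in the high-score lymphomas, 12.8% in all, at an adjusted p below 0.05. At least a 2-fold difference was seen for 199 of those higher and 49 of those lower. The median difference of all tested genes was -0.02. The counts of each gene list below stand beside the shares of all tested genes, 5.41% higher and 7.43% lower. The 9 high-score lymphomas all lay above the 9 low-score lymphomas for 58 tested genes (0.688%) and all below them for 42 (0.498%). With D55, D59 and D121 left out, the counts were 218 higher and 223 lower, and ranked by the CD3 chains alone they were 44 and 14. Without a term for array set they were 224 and 118. D121 and D135 were the only lymphomas of set 2 in the contrast. When either is left out, the term for array set fits the other exactly, so that one drops out as well. Fits without D55, D59 and D121 therefore rest on set 1 alone. Of 120 genes that passed the test and are named in the text, 80 passed in each of 18 fits that left out 1 lymphoma, and 65 passed without D55, D59 and D121.

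The largest difference was that of Ms4a4b, a membrane protein gene of T cells. Its levels were 10.76 in D52, 10.09 in D89, 10.68 in D59, 10.67 in D93, 9.28 in D55, 9.49 in D83, 9.03 in D121, 9.40 in D70 and 9.80 in D85. In the low-score lymphomas they were 6.64 in D98, 6.99 in D72, 5.49 in D43, 6.50 in D80, 6.31 in D135, 5.02 in D34, 5.89 in D64, 4.79 in D107 and 4.38 in D35. The groups did not overlap, and the difference of 4.13 ± 0.36 (SE), a 17.5-fold change, had a limma adjusted p of 9.41e-06. Next came Gimap4, a GTPase gene of lymphocyte survival, at 3.59 ± 0.55, and Trbv1, a T cell receptor beta variable segment, at 3.42 ± 0.35. Ltb, which encodes lymphotoxin beta, was higher by 2.76 ± 0.46. Cd8b1, Cd3g, Ell2, Jchain, Fyb, Cd5, Thy1 and Iigp1, described below, completed the 12 largest upward differences. Probe sets of receptor segments, of Ms4a and Gimap genes and of MHC class I genes can read related sequences.

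T cell receptor genes were mostly higher. Of 19 further measured genes of the receptor complex, its coreceptors and its proximal signalling, 17 passed the filter on low values, 13 were higher and 0 were lower. Their median difference was 1.56. The filter kept a gene if 1 of the 36 lymphomas lay above its array's median, and 3 of the 17 passed through high-score lymphomas alone. Sh2d1a and Cd5, above the array median in 2 and 4 of the 36, were among these 3. Their direction was thus tied to the filter. Genes of the whole list are expressed by the cells whose markers set the score, so their direction is tied to the choice of the groups. In bulk tissue, fewer cells of a type and less RNA per cell cannot be told apart.

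Cd3g, the third CD3 chain gene, had levels of 7.37, 8.25 and 9.63 in high-score lymphomas, against 4.07, 4.38 and 8.55 in low-score lymphomas. The groups overlapped through D34, a low-score lymphoma at 8.55, and the difference was 3.30 ± 0.51 (SE, adjusted p = 0.00138). Cd8b1, a chain of the CD8 coreceptor of cytotoxic T cells, had 6.23, 7.75 and 11.16 in high-score and 4.50, 5.04 and 5.43 in low-score lymphomas. D55 and D121 held the upper end at 11.16 and 10.94, and all 9 high-score lymphomas were above all 9 low-score lymphomas. The difference of 3.30 ± 0.54 (adjusted p = 0.00205) was 2.63 without D55, D59 and D121. Cd8a, the other CD8 chain gene, had 6.75, 7.11 and 7.69 in high-score and 6.19, 6.42 and 6.64 in low-score lymphomas, also without overlap (0.72 ± 0.11, adjusted p = 0.00145).

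Cd4, the coreceptor gene of helper T cells, had levels of 6.12, 6.96 and 8.63 in high-score lymphomas and 5.57, 5.77 and 6.35 in low-score lymphomas. The groups overlapped, with D121 and D55 again highest at 8.63 and 8.44. The difference was 1.27 ± 0.30 (adjusted p = 0.0118), and 0.68 without D55, D59 and D121. Cd5, a receptor that dampens T cell signals, had 5.08, 6.22 and 9.06 in high-score and 3.33, 4.11 and 4.74 in low-score lymphomas, with 9.06 in D55 and 8.87 in D121. It was higher by 2.72 ± 0.49 (adjusted p = 0.00377) without overlap. Cd7, a T and NK lineage surface protein gene, reached 11.47 in D55 and 10.68 in D121, against at most 8.13 in the other high-score lymphomas and 5.79 to 6.49 in low-score lymphomas.

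Adaptor, kinase and surface protein genes were among the other called members of the receptor list. The adaptor gene Sh2d1a had 5.12, 5.41 and 6.93 in high-score and 3.41, 3.73 and 4.20 in low-score lymphomas, a difference of 1.99 ± 0.24 (adjusted p = 0.000227). Prkcq, a protein kinase C of T cell activation, differed by 1.34 ± 0.18, Fyb, a cytoskeletal adaptor, by 2.74 ± 0.39, and Cd28, the receptor for costimulation, by 2.20 ± 0.35. The groups did not overlap for any of these 4 genes. Thy1, a surface glycoprotein of mouse T cells, was higher by 2.70 ± 0.36, Lat, the adaptor that receptor kinases phosphorylate, by 1.56 ± 0.29, and Cd6 by 1.14 ± 0.21, each with some overlap. Leaving out D55, D59 and D121 left 13 receptor genes called.

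Transcription factors and homing receptors of T and NK cells were higher in 7 of 15 genes that passed the filter, with 0 lower and a median of 0.79. Cxcr3, a chemokine receptor of effector T cells whose ligands are induced by interferon gamma, had 6.22, 7.35 and 8.37 in high-score and 5.52, 5.85 and 6.04 in low-score lymphomas. There was no overlap, and the difference was 1.61 ± 0.25 (adjusted p = 0.00138). The other called receptors were Il18r1 (1.07 ± 0.21), Cxcr6 (0.79 ± 0.17), Ccr2 (1.51 ± 0.36) and Il2rb (0.58 ± 0.16), which bind interleukin 18, CXCL16, CCL2 and interleukins 2 and 15. In this list 3 of the 15 genes passed the filter through high-score lymphomas alone, Eomes and Cxcr6 among them, and Cxcr6 through D52 only, so their direction was tied to the filter. Il2rb lost its call without D35, D52 or D98. Eomes, a transcription factor of cytotoxic and NK cells, differed by 1.05 ± 0.21 (adjusted p = 0.00524). Bcl11b, which maintains T cell identity, differed by 1.55 ± 0.32 without overlap. Among GIMAP GTPase genes 3 of 5 were higher, Gimap4, Gimap3 (1.50 ± 0.31) and Gimap7 (1.50 ± 0.38).

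The cytotoxic and NK cell list had 27 further measured genes, of which 16 passed the filter, 11 were higher and 0 lower, with a median difference of 1.03. The filter let 5 of the 16 through by high-score lymphomas alone, Gzmb, Klrc1 and Ccl3 among them, which ties their direction to the filter. Gzmb, which encodes granzyme B, had 9.52 in D52, 8.68 in D89, 7.76 in D83, 7.51 in D59, 6.98 in D55 and 6.42 in D121. It had 4.87 in D93, 4.66 in D70 and 4.33 in D85, against 3.71, 4.05 and 5.14 (lowest, median, highest) in low-score lymphomas. The first 6 lay above every low-score lymphoma, and the last 3, whose score came more from the CD3 chains, lay inside the low-score range. The difference over all 9 was 2.54 ± 0.60 (SE, adjusted p = 0.012), and the adjusted p was 0.0578 without D55, D59 and D121.

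The other granzyme genes were less uniform. Gzma had levels of 5.94, 7.35 and 9.21 in high-score lymphomas, against 5.48, 5.92 and 7.13 in low-score lymphomas, with overlap (1.36 ± 0.38, adjusted p = 0.0259). The highest value was in D59 and D121 had the lowest of the group, 5.94. Gzmk had 5.82, 8.65 and 10.57 in high-score and 5.61, 5.90 and 6.34 in low-score lymphomas (2.18 ± 0.54, adjusted p = 0.0163). Ctsw, a cysteine protease of killer cells, had 6.68, 7.36 and 9.03 in high-score and 4.85, 5.57 and 6.05 in low-score lymphomas, without overlap (2.03 ± 0.26, adjusted p = 0.000371). Cst7, a protease inhibitor of the same granules, differed by 1.06 ± 0.21, also without overlap. Serpinb9, the inhibitor that protects cells from granzyme B, differed by 1.44 ± 0.39 (adjusted p = 0.0248).

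Klrd1 and Klrc1 encode lectin-like receptors of NK cells and effector CD8 T cells. Klrd1, the CD94 chain, had 6.43, 8.03 and 9.21 in high-score and 4.99, 5.61 and 6.28 in low-score lymphomas. The difference was 2.22 ± 0.31 (adjusted p = 0.000748) without overlap. Klrc1, the inhibitory NKG2A chain that pairs with it, had medians of 4.72 in high-score and 3.84 in low-score lymphomas, also without overlap (adjusted p = 0.0232). Ncr1, which marks NK cells more narrowly, lay above its array's median in 0 of 36 lymphomas and was not tested. The chemokine genes Ccl4, Ccl3 and Xcl1, secreted by activated killer cells, differed by 0.82 ± 0.22, 1.75 ± 0.50 and 0.45 ± 0.08. Leaving these 3 lymphomas out (D55, D59 and D121), 6 cytotoxic genes were called, and ranked by the CD3 chains alone 1 was.

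**Figure D2:**
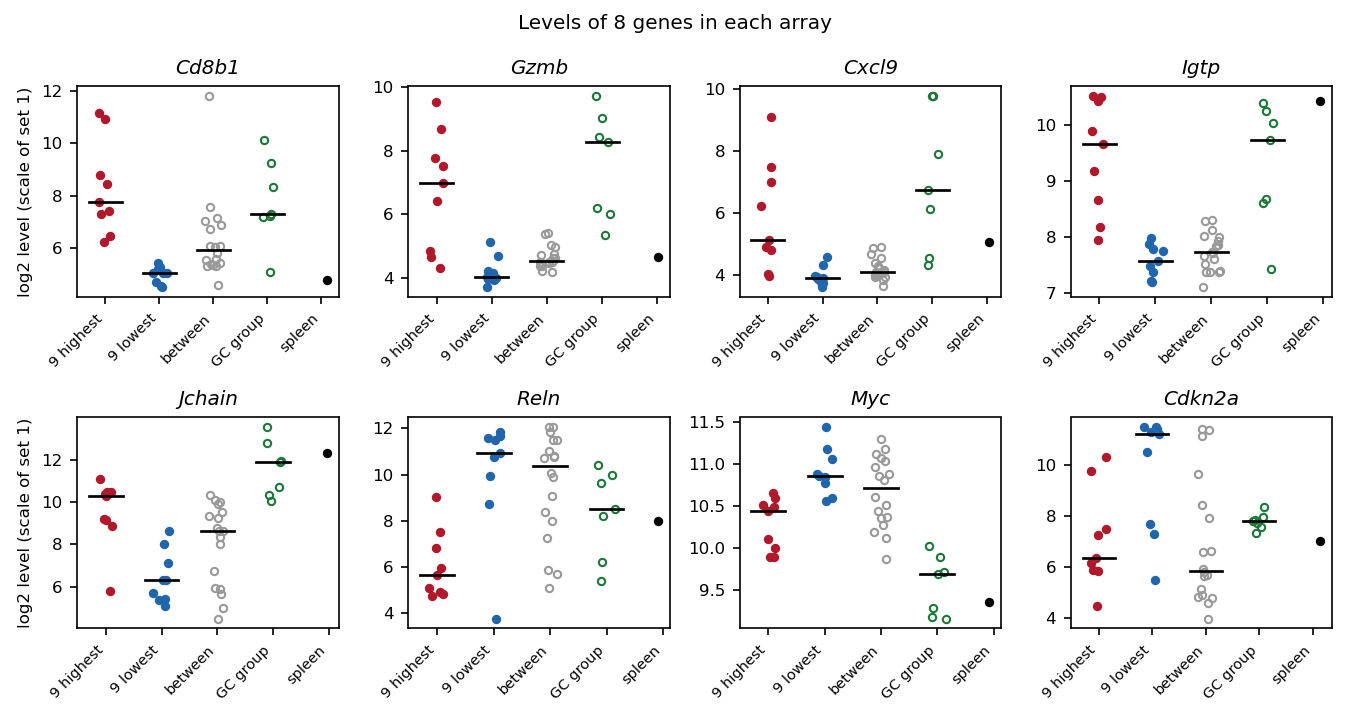
Log2 levels (vertical axes, scale of array set 1) of 8 genes in each array; points are arrays, lines are medians, and the groups are the 9 highest, the 9 lowest, the 18 between them, the germinal centre group and the spleen. The 9 highest lie above the 9 lowest for Cd8b1, and for Gzmb they spread from 4.33 to 9.52.

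Of 14 measured helper and regulatory T cell genes 6 passed the filter and 3 were higher, the costimulatory receptor genes Icos (0.76 ± 0.14), Tnfrsf18 (1.26 ± 0.26) and Tnfrsf4 (0.35 ± 0.08), with adjusted p values of 0.00448, 0.00642 and 0.01. Foxp3, the defining factor of regulatory T cells, lay above its array's median in 0 of 36 lymphomas. Ctla4, an inhibitory receptor, had 4.39 to 6.61 in high-score and 4.09 to 4.87 in low-score lymphomas (adjusted p = 0.0605).

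In the checkpoint list 12 of 16 measured genes passed the filter, 6 were higher and 1 was lower, against 5.41% and 7.43% of all tested genes. Of the 12, 5 passed the filter through high-score lymphomas alone, among them Cd96 and Lag3, each above the array median in 3 of 36 lymphomas, so that their direction was tied to the filter. Cd96, a receptor of T and NK cells, had medians of 5.58 in high-score and 4.61 in low-score lymphomas, without overlap (1.23 ± 0.23, adjusted p = 0.00448). Lag3, an inhibitory receptor of activated T cells, differed by 0.82 ± 0.24 (adjusted p = 0.0335). Of ligands on other cells, Cd274, which encodes PD-L1, had 6.29, 7.61 and 9.56 in high-score and 5.82, 6.39 and 7.12 in low-score lymphomas (1.21 ± 0.37, adjusted p = 0.0402). Pvr, a ligand of CD96, differed by 0.70 ± 0.21. Cd47, which signals to phagocytes not to engulf a cell, differed by 0.65 ± 0.17, and its receptor gene Sirpa by 1.10 ± 0.35. Lgals9, encoding galectin 9, was lower (-1.29 ± 0.39, adjusted p = 0.0359). In the fit without D55, D59 and D121 the list held 1 higher gene and 1 lower gene. Leaving out 1 lymphoma at a time gave 2 to 9 higher genes, with 2 without D55, D89 or D107 and 3 without D52, D64, D121 or D135. Lgals9 lost its call without D43, D52, D55, D64, D72, D83 or D89.

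Among surface ligands for costimulation and NK recognition, 2 of 11 were higher and 1 lower, against 5.41% and 7.43% of all tested genes. Clec2d, a ligand of an inhibitory NK receptor, had 9.01, 9.59 and 10.74 in high-score and 7.36, 8.32 and 9.17 in low-score lymphomas (1.49 ± 0.27, adjusted p = 0.00377). Cd86, a ligand of CD28, differed by 1.20 ± 0.31 (adjusted p = 0.0196), and its adjusted p was 0.0983 without D55, D59 and D121. Slamf7, a receptor on plasma cells, B cells and NK cells, was lower, with 5.43, 7.10 and 8.93 in high-score and 8.44, 8.93 and 9.46 in low-score lymphomas (-1.74 ± 0.39, adjusted p = 0.0103).

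**Figure D3:**
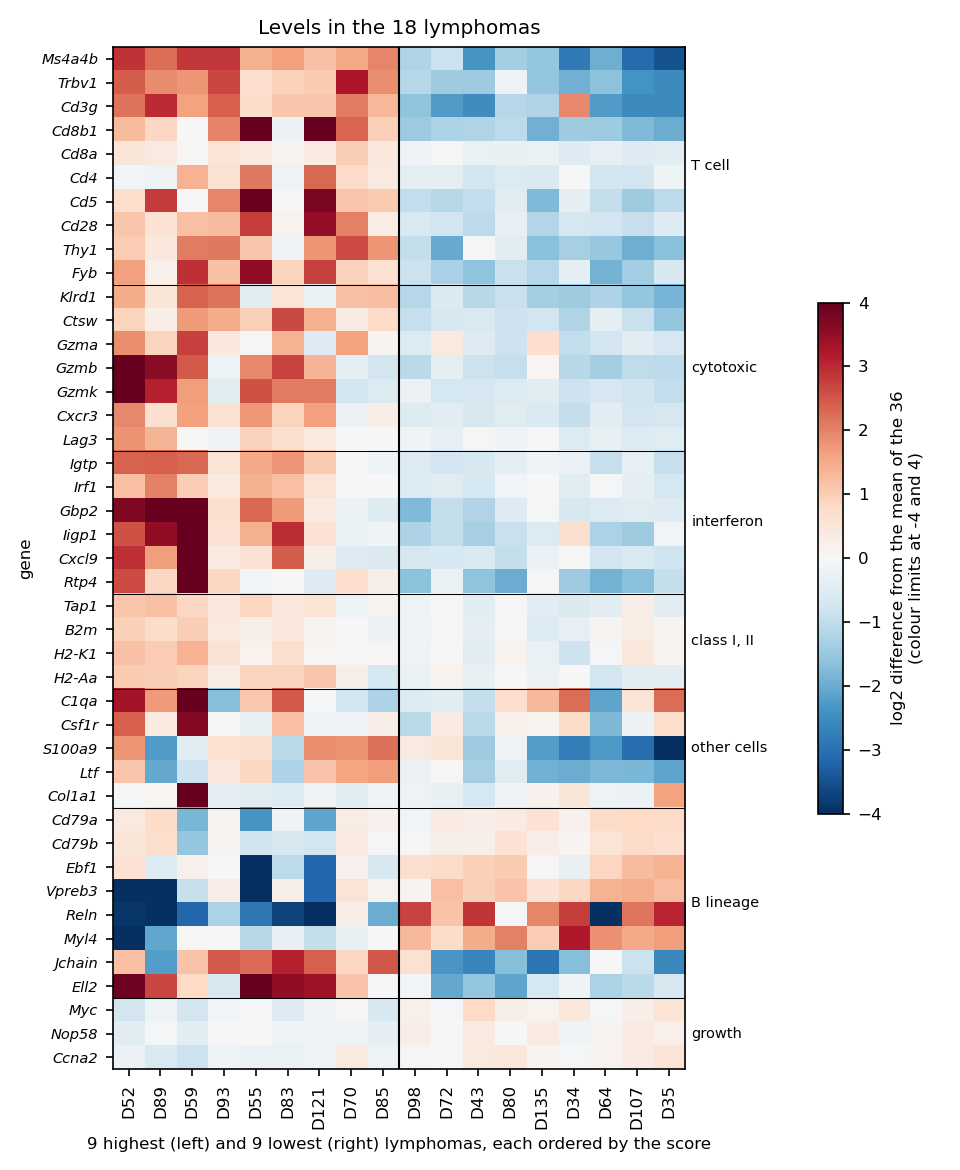
Levels of selected genes (vertical axis) in the 9 high-score lymphomas, left, and the 9 low-score lymphomas, right, each ordered by score; the colour is the log2 difference from the mean of the 36 ranked lymphomas. Ms4a4b is high across all 9 high-score lymphomas, while the level of Gzmb is 4.87, 4.66 and 4.33 in D93, D70 and D85.

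Interferon gamma response genes were higher in 9 of 17 genes that passed the filter, with 0 lower and a median of 1.09. Promoters of 2 of them are printed with a sequence motif that interferon-activated factors are known to bind, since these genes were higher together. The windows run from 250 bases before to 50 bases after the RefSeq start (GRCm38.p6) on the gene's strand. Capitals mark GAAANNGAAA (a core of the interferon-stimulated response element, bound by IRF factors). Igtp (chr11:58199306-58199605, plus strand) has it 34 bases before the start, and Irgm2 (chr11:58214727-58215026, plus strand) 64 bases before it.
Igtp: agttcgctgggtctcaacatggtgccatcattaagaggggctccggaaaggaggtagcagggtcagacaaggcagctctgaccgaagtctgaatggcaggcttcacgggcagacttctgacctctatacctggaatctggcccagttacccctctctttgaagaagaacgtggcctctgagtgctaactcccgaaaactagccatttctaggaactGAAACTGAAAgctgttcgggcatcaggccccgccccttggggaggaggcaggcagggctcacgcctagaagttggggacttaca
Irgm2: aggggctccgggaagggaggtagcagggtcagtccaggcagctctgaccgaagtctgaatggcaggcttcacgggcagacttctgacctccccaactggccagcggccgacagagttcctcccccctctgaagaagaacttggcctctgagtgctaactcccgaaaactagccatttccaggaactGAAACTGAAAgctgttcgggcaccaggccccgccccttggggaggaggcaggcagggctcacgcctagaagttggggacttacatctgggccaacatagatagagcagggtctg

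Both strands were searched. The motif GAAANNGAAA was found in 5 of the 7 matched higher genes of the list (71.4%), against 4.0% of 27025 genes with a promoter. For the MHC class I and type I interferon lists, described below, it was found in 2 of 8 and 1 of 3 matched higher genes. The list was chosen as interferon response genes, so a high share is tied to that choice. The windows of Igtp and Irgm2 are nearly alike around the motif, so these 2 matches are not independent. These matches describe the letters of the windows and show no binding in these samples.

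Irf1, a transcription factor induced by interferon gamma, had levels of 8.52, 9.59 and 10.61 in high-score and 7.88, 8.17 and 8.55 in low-score lymphomas. The groups overlapped narrowly, and the difference was 1.24 ± 0.24 (SE, adjusted p = 0.00486). Igtp, a GTPase that acts on vacuoles of intracellular parasites, had 7.95, 9.65 and 10.52 in high-score and 7.20, 7.57 and 7.98 in low-score lymphomas (1.86 ± 0.33, adjusted p = 0.00377). Its relatives Irgm2, Irgm1 and Iigp1 differed by 1.60 ± 0.37, 0.90 ± 0.27 and 2.69 ± 0.68. Of the guanylate-binding protein genes, Gbp2 had 6.22, 8.45 and 11.14 in high-score and 4.96, 6.19 and 6.65 in low-score lymphomas (2.59 ± 0.62, adjusted p = 0.0131). Gbp6 (1.14 ± 0.30), which did not overlap, and Gbp7 (1.72 ± 0.47) were higher as well. Cxcl9, a ligand of CXCR3, had 3.97, 5.14 and 9.09 in high-score and 3.61, 3.90 and 4.58 in low-score lymphomas (1.88 ± 0.56, adjusted p = 0.0354). The list score was -0.225 in D85, inside the low-score range of -0.669 to -0.043, and -0.039 in D70, at its edge. In the other high-score lymphomas it was 0.229 or above. Of the 17 genes, 3 passed the filter through high-score lymphomas alone, Gbp6 and Cxcl9 among them. Without D55, D59 and D121, 7 genes of the list were called, and ranked by the CD3 chains alone 0 were, with 9 higher at an unadjusted p below 0.05.

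Genes that type I interferon induces were higher in 6 of 23, with 0 lower, 17 at an unadjusted p below 0.05 and a median of 1.10. The list score in D59 was 3.35, against a group median of 0.08 in high-score lymphomas and -0.46 in low-score lymphomas. Irf9, part of the interferon-stimulated transcription complex, had 7.02, 7.70 and 8.78 in high-score and 5.99, 6.76 and 7.16 in low-score lymphomas (1.17 ± 0.23, adjusted p = 0.00505). Rtp4, a chaperone of receptors, differed by 2.27 ± 0.54, and Zbp1, a sensor of nucleic acids, by 1.62 ± 0.43. Of the 23 genes 5, with Zbp1 among them, passed the filter through high-score lymphomas alone. This list had 11 called genes without D55, D59 and D121.

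MHC class I presentation genes were higher in 9 of 14, with 0 lower and a median of 0.49. Tap1, a subunit of the peptide transporter, had 8.61, 9.36 and 9.99 in high-score and 8.21, 8.39 and 9.07 in low-score lymphomas (0.85 ± 0.17, adjusted p = 0.00616). Psmb9, an immunoproteasome subunit, had 9.72, 10.41 and 11.11 in high-score and 9.38, 9.49 and 10.22 in low-score lymphomas (0.73 ± 0.18, adjusted p = 0.0138). The class I heavy chain gene H2-K1 and the light chain gene B2m had medians of 12.49 and 12.46 in high-score lymphomas, against 11.84 and 12.02 in low-score lymphomas. They differed by 0.68 ± 0.20 and 0.50 ± 0.15. Tap2, Tapbp, Erap1, Psmb10 and Calr, which load or trim peptides, differed by 0.51, 0.62, 0.45, 0.37 and 0.45. The groups overlapped for all 9. The list score was -0.05 in D70 and -0.12 in D85, inside the low-score range of -0.32 to 0.17. Leaving out 1 lymphoma at a time gave 3 to 12 called genes, with 3 without D43 or without D89 and 4 or 5 without D35, D52, D55, D59 or D98. Without D55, D59 and D121 no class I gene was called by limma (0 of 14, with 9 higher at an unadjusted p below 0.05), and Tap1 differed by 0.76 (adjusted p = 0.0517) and Psmb9 by 0.73 (adjusted p = 0.0635).

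Class II presentation genes were higher in 3 of 10, against 5.41% of all tested genes. H2-Aa had 10.79, 12.40 and 12.62 in high-score and 10.77, 11.22 and 11.64 in low-score lymphomas (0.88 ± 0.20, adjusted p = 0.0111), and H2-Ab1 and H2-Eb1 differed by 0.77 ± 0.22 and 1.01 ± 0.29. These molecules are carried by B cells, dendritic cells and macrophages alike. Without D43, D52, D121 or D135 in turn, 1 gene was called. Without D55, D59 and D121 the differences were 0.71, 0.60 and 0.88, and 0 of 10 passed limma, with 5 higher at an unadjusted p below 0.05 (adjusted p = 0.0941, 0.167 and 0.141).

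**Figure D4:**
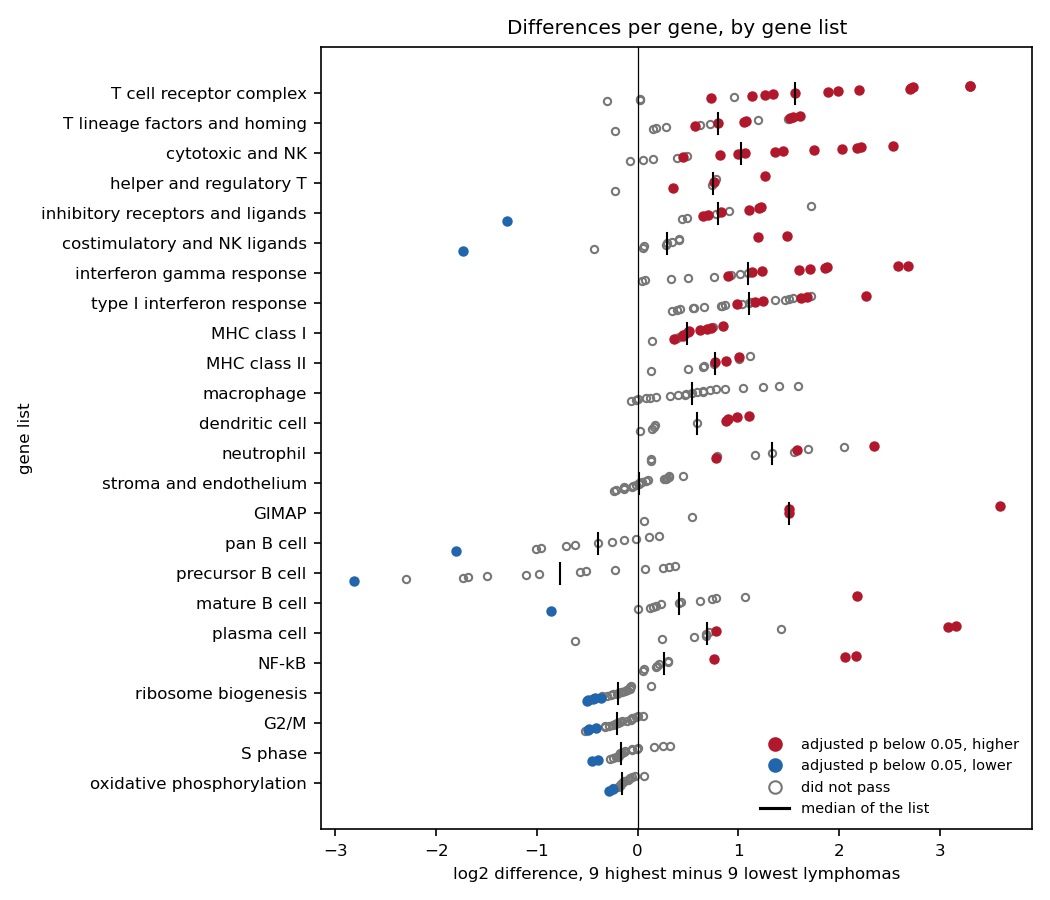
Log2 difference, 9 highest minus 9 lowest lymphomas (horizontal axis), of each gene that passed the filter, by gene list down the page; filled points are genes past the limma threshold, open points are not, and a line marks each list's median. The T cell receptor list has a median of 1.56 with 13 of 17 genes filled, and the macrophage list a median of 0.54 with 0 of 21 filled.

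Markers of other host cells were examined beside these genes, and their part in the results was not tested. Macrophage genes had 0 of 21 called in either direction by limma, with 1 higher at an unadjusted p below 0.05. Csf1r, the receptor that sustains macrophages, had 8.13, 8.70 and 12.11 in high-score and 6.63, 8.57 and 9.16 in low-score lymphomas (adjusted p = 0.187). The complement gene C1qa had 5.14, 7.90 and 11.93 in high-score and 4.71, 7.35 and 9.06 in low-score lymphomas (adjusted p = 0.585). The macrophage list score ran from -0.86 to 3.04 in high-score and from -1.15 to 1.33 in low-score lymphomas, with medians of 0.28 and 0.50. With the macrophage score as a covariate the counts over all genes were 437 higher and 518 lower.

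Stromal genes had 0 of 20 called by limma, with 0 at an unadjusted p below 0.05 in either direction and a median of 0.02. Their score ran from -0.51 to 4.13 in high-score and from -0.45 to 1.90 in low-score lymphomas, the first maximum being D59. Fat cell and red cell precursor genes had 0 of 5 called in each list, and 0 at an unadjusted p below 0.05. Dendritic cell genes were higher in 4 of 9, against 5.41% of all tested genes. They were the integrin gene Itgax (1.11 ± 0.27), the transcription factor gene Batf3 (0.87 ± 0.26), the lectin gene Clec10a (0.89 ± 0.28) and Bst2 (0.98 ± 0.27), which is also interferon-induced. The count was 1 without D55, D59 and D121, and 1 to 4 when any 1 lymphoma was left out, with 1 without D121 or D135 and 2 without D35, D43, D52, D83, D98 or D107.

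Neutrophil genes were higher in 3 of 11, against 5.41% of all tested genes, with a median of 1.34. S100a9, a calcium-binding protein gene of neutrophils, had 7.06, 9.99 and 11.56 in high-score and 4.36, 7.11 and 9.83 in low-score lymphomas, with overlap (2.35 ± 0.75, adjusted p = 0.0465). The granule genes Ltf and Prtn3 differed by 1.59 ± 0.50 and 0.78 ± 0.23 (adjusted p = 0.0453 and 0.0359). The count was between 0 and 8 when 1 lymphoma was left out. It was 0 without D34, D35, D43, D52, D55, D64, D70, D85, D107, D121 or D135, 1 without D93, and 5 to 8 without D72, D83, D89 or D98. It was 0 in limma without D55, D59 and D121, with 6 higher at an unadjusted p below 0.05.

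Pan B cell genes had 0 of 11 higher and 1 lower. The lower count is near the share of all tested genes that were lower (7.43%). Cd79a had 8.83, 11.29 and 11.93 in high-score and 11.08, 11.53 and 11.99 in low-score lymphomas (adjusted p = 0.0977). Besides D55 and D121 only D59, at 9.37, lay below every low-score lymphoma by more than 1 log2 unit. Ebf1, a factor that specifies B cells, had 3.51, 7.98 and 9.11 in high-score and 8.24, 9.41 and 9.94 in low-score lymphomas, and was lower (-1.80 ± 0.57, adjusted p = 0.044). D55 had 3.51 and D121 5.41, and without them and D59 the difference was -1.08 (adjusted p = 0.039). The call was lost, leaving 0 lower genes in the list, without D35, D43, D64, D72, D80, D83, D85, D89, D98, D107, D121 or D135 in turn, and in 24 of all 43 settings. With the pan B cell score as a covariate the counts over all genes were 305 higher and 322 lower, and 12 receptor genes were called.

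Precursor B cell genes had a median of -0.77 and 1 of 14 lower, which is near the share of all tested genes that were lower (7.43%). The count was 1 to 4 when 1 lymphoma was left out, with 2 without D70, D85 or D89, 3 without D34 or D59 and 4 without D93. Vpreb3, a precursor B cell receptor component gene, had 5.20, 9.13 and 10.61 in high-score and 10.16, 11.18 and 11.51 in low-score lymphomas (-2.82 ± 0.73, adjusted p = 0.0208). Its adjusted p was 0.0776 without D55 and D121 and 0.103 without D59 as well, which left 0 lower genes in the list. Not past the threshold were Myb (-1.10 ± 0.38, adjusted p = 0.0606), Cd93 (-1.69 ± 0.59, adjusted p = 0.0639) and Alpl (-1.73 ± 0.59, adjusted p = 0.0585). Mature B cell genes had 1 of 13 higher, the activation marker Cd83 (2.18 ± 0.67, adjusted p = 0.0404), and 1 lower, the complement regulator Cd55 (-0.86 ± 0.27, adjusted p = 0.0408). Both counts are near the shares of all tested genes (5.41% and 7.43%). The higher count was 0 without D35, D43, D52, D64, D80, D83, D98 or D107 and 2 without D55 or D59. The lower count was 0 without D34, D35, D43, D52, D55, D59, D64, D72, D80, D98, D107, D121 or D135. Leaving out D55, D59 and D121 gave 3 higher and 0 lower. The germinal centre factor Bcl6, in lymphomas outside the germinal centre group, had 5.83, 6.23 and 7.42 in high-score and 5.11, 5.42 and 6.68 in low-score lymphomas (1.01 ± 0.25, adjusted p = 0.0148). It was the 1 higher gene of 5 in its list, against 5.41% of all tested genes, and a count this small is no result about the list. The adjusted p of Bcl6 was 0.0662 without D55, D59 and D121.

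Jchain and Ell2, genes of antibody secretion, were among the 12 largest upward differences. Jchain, which joins secreted IgM and IgA, had 5.78, 10.26 and 11.08 in high-score and 5.07, 6.30 and 8.61 in low-score lymphomas, with D89 alone among the high-score lymphomas at the low end (5.78). The difference was 3.08 ± 0.64 (adjusted p = 0.00642). Ell2, an elongation factor that favours the secretory form of immunoglobulin mRNA, had 5.23, 8.53 and 9.89 in high-score and 3.76, 4.77 and 5.76 in low-score lymphomas (3.16 ± 0.60, adjusted p = 0.00448). Creld2, an endoplasmic reticulum stress gene, differed by 0.78 ± 0.25, and 3 of 10 plasma cell genes were higher in all, against 5.41% of all tested genes. Without D55, D59 and D121 1 of the 10 was, with adjusted p values of 0.0531 for Jchain and 0.0825 for Creld2. Leaving out 1 lymphoma ended the call of Creld2 in 15 of 18 fits, those without D59, D70 and D93 being the exceptions.

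Among NF-kB target genes 3 of 10 were higher, against 5.41% of all tested genes. They were Bcl3 (2.06 ± 0.42), the adhesion molecule gene Icam1 (0.76 ± 0.19) and Ebi3 (2.17 ± 0.55), a cytokine subunit, with adjusted p values of 0.00568, 0.0159 and 0.0181. Bcl3 and Ebi3 passed the filter through high-score lymphomas alone. The count was 1 without D55, D59 and D121 (adjusted p = 0.0913 for Icam1 and 0.128 for Ebi3) and 1 without D55 and D121.

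The largest downward difference was that of Reln, an extracellular matrix glycoprotein gene. It had 4.72, 5.64 and 9.01 in high-score lymphomas, against 3.75, 10.94 and 11.83 in low-score lymphomas, a difference of -4.02 ± 0.94 (SE, adjusted p = 0.0113). The low-score lymphomas were at 8.70 or above except D64, which at 3.75 lay below every high-score lymphoma. The adjusted p of Reln was 0.0788 without D55, D59 and D121. Myl4, a myosin light chain gene, had medians of 8.93 in high-score and 10.76 in low-score lymphomas, and the groups did not overlap (-2.70 ± 0.54, adjusted p = 0.00568). Tifa, an adaptor that activates NF-kB, had 5.92, 8.20 and 9.17 in high-score and 8.66, 10.29 and 11.42 in low-score lymphomas (-2.37 ± 0.42, adjusted p = 0.00362). The scaffold gene Akap12 (-2.60 ± 0.69), the hydrolase gene Fhit (-2.07 ± 0.40), the membrane protein gene Gpm6b (-2.05 ± 0.40), Nav2 (-1.97 ± 0.45), the RNA-binding protein gene Igf2bp3 (-1.97 ± 0.61) and the deubiquitinase gene Otub2 (-1.89 ± 0.48) were also lower. Vpreb3, 1700097N02Rik (-1.99 ± 0.57) and Zfp982 (-1.93 ± 0.49) completed the 12. Igf2bp3 lost its call without D35, D43, D52, D55, D64, D80, D85, D89, D98, D107, D121 or D135, and 1700097N02Rik without D43, D52, D55, D59, D80, D83, D89 or D107. With D55, D59 and D121 left out together, Akap12, Zfp982, Vpreb3, Igf2bp3 and 1700097N02Rik were not called either (adjusted p = 0.0591, 0.102, 0.103, 0.171 and 0.138).

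Myc had 9.89, 10.44 and 10.65 in high-score lymphomas, against 10.56, 10.86 and 11.44 in low-score lymphomas. The groups overlapped at their edges, and Myc was lower in high-score lymphomas (-0.63 ± 0.14, SE, adjusted p = 0.00908). The probe set does not tell transgenic from endogenous Myc transcripts. Mycn had medians of 6.91 in high-score and 6.88 in low-score lymphomas (adjusted p = 0.917). Cdkn2a, which encodes the tumour suppressors p16Ink4a and p19Arf, had 4.46, 6.36 and 10.31 in high-score and 5.49, 11.18 and 11.46 in low-score lymphomas. Both groups held lymphomas with high and with low levels, and the difference of -2.69 ± 0.94 did not pass (adjusted p = 0.0648).

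The growth genes that were lower differed by small amounts, and 7.43% of all tested genes were lower. Ribosome biogenesis genes were lower in 5 of 23, with 0 higher and a median of -0.19. Nop58, a nucleolar protein of ribosomal RNA modification, had 11.38, 11.68 and 11.83 in high-score and 11.68, 12.06 and 12.21 in low-score lymphomas (-0.37 ± 0.09, adjusted p = 0.0111). The assembly factor genes Wdr12, Rrs1 and Pes1 differed by -0.50 ± 0.13, -0.42 ± 0.10 and -0.49 ± 0.13. Mitotic genes were lower in 3 of 22, Ccna2 (-0.49 ± 0.13), Ccnb2 (-0.48 ± 0.15) and Kif20a (-0.41 ± 0.13). The number of mitotic genes was 1 to 5, and that of ribosome biogenesis genes 3 to 6, when 1 lymphoma was left out, with 3 without D43 for the last. The mitotic count was 1 without D35, D43, D52, D59, D64, D72, D85, D89, D98 or D107 and 5 without D70. In S phase 2 of 20 were lower, the primase gene Prim1 (-0.39 ± 0.11) and the uracil glycosylase gene Ung (-0.46 ± 0.14). This count was 1 without D35, D43, D52, D59, D98, D107, D121 or D135 and 3 without D70. In oxidative phosphorylation 2 of 17 were lower, the ATP synthase genes Atp5b (-0.28 ± 0.06) and Atp5a1 (-0.25 ± 0.08). Atp5a1 lost its call in 16 of 18 fits that left out 1 lymphoma, all but those without D34 and D83. Counts this small are no result about the S phase and oxidative phosphorylation lists. The glycolysis list, which also held the growth factor gene Vegfa, had 2 of 15 genes higher and 2 lower. Hk1 (0.76 ± 0.19) and Aldoa (0.64 ± 0.20) were higher, and Ldha (-0.22 ± 0.07) and Vegfa (-0.65 ± 0.19), which is not a gene of glycolysis itself, were lower. The higher count was 1 without D35, D43, D52, D55, D64, D80, D83, D89, D98, D107, D121 or D135. The lower count was 0 without D35, D43, D52, D55, D89 or D107 and 1 without D59, D72, D80, D93, D98, D121 or D135. Without D55, D59 and D121, 0 ribosome biogenesis genes were called by limma, with 6 lower at an unadjusted p below 0.05, and Nop58 differed by -0.34 (adjusted p = 0.0531). The counts of the other lists were then 1 lower for mitosis, 0 for S phase and 1 for oxidative phosphorylation, and 0 higher and 2 lower for glycolysis.

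The p53 target list had 0 of 14 higher and 1 lower by limma, the growth arrest gene Gadd45a (-0.65 ± 0.19, adjusted p = 0.0319), with 2 higher at an unadjusted p below 0.05. The lower count is near the share of all tested genes that were lower (7.43%) and is no result about the list. Gadd45a lost its call without D43, D52, D55, D72, D80, D83, D98, D107, D121 or D135. BCL2 family genes had 0 of 10 called, with 1 higher at an unadjusted p below 0.05.

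Xist, the RNA that silences an X chromosome in female cells, lay above a level of 9 in 9 of 9 high-score and 7 of 9 low-score lymphomas, and in 6 of the 18 between them. The difference was 0.84 ± 0.75 (adjusted p = 0.492). The difference between 3' and 5' control probe sets, which grows as RNA breaks down, had medians of 0.38 in high-score and 0.26 in low-score lymphomas. It was 1.07 in D85, 0.71 in D59, 0.71 in D93 and 0.65 in D70, above the low-score maximum of 0.60. D93, D70 and D85 were also the high-score lymphomas inside the low-score range for Gzmb, and a link was not tested. With this 3' to 5' difference as a covariate the contrast had 667 higher and 839 lower genes.

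All tested genes were then examined in 25 lymphomas that the contrast did not use, the 18 between the groups and the 7 of the germinal centre group, as the slope of each gene on the score with terms for array set and germinal centre group. The score is that of the same 4 genes, so genes of T and cytotoxic cells are tied to it here as well. Of 8427 genes, 88 (1.04%) had a positive slope and 4 (0.0475%) a negative slope past the threshold of limma, and at an unadjusted p below 0.05 there were 490 and 388. The 88 held 67 genes that were also higher in the high-score lymphomas (76.1% of the 88). Of the 456 higher genes 390 (85.5%) had a slope above 0, against 44.3% of all tested genes. Of the 626 lower genes 541 (86.4%) had a slope below 0, against 55.7% of all tested genes, and 0 of them had a slope past the limma threshold. In the 18 lymphomas between the groups alone, 9 positive slopes passed.

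**Figure D5:**
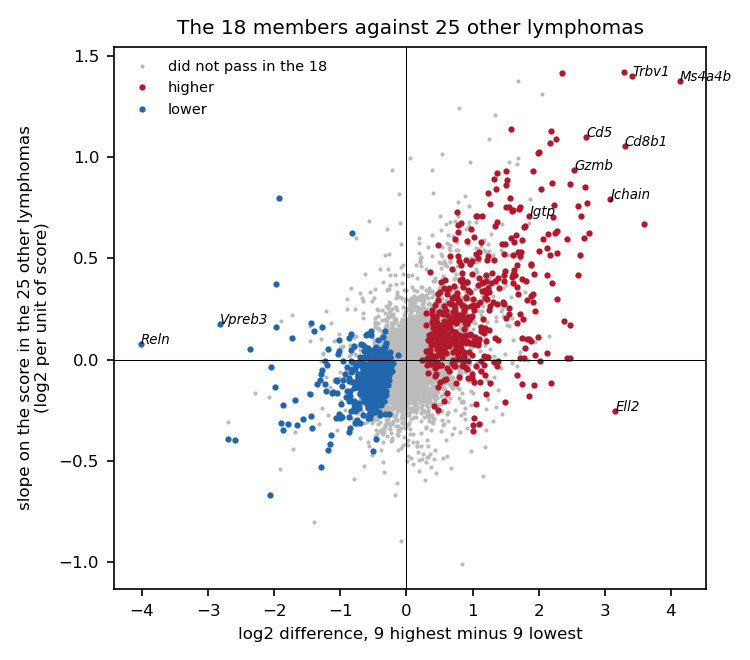
Slope on the score in 25 lymphomas outside the contrast (log2 per score unit, vertical axis) against the difference between high-score and low-score lymphomas (log2, horizontal axis); each point is 1 tested gene. Filled colours mark genes higher or lower past the limma threshold; Ms4a4b lies at a difference of 4.13, far to the right, and Reln at -4.02, far to the left.

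Sh2d1a had a slope of 1.02 ± 0.07 (SE, log2 per unit of score, adjusted p = 1.81e-09), Cd5 of 1.10 ± 0.08 (adjusted p = 1.81e-09) and Trbv1 of 1.40 ± 0.12 (adjusted p = 1.05e-07). Sh2d1a and Cd5 had passed the filter through high-score lymphomas alone. Of the T cell receptor list 9 genes had positive slopes past the threshold, and of the cytotoxic list 9, Gzmk (1.07 ± 0.14) and Gzmb (0.94 ± 0.16) among them. Klrd1 had 0.70 ± 0.17 (adjusted p = 0.039). The slopes of Cd8b1 (1.05 ± 0.39) and Gimap4 (0.67 ± 0.43) did not pass (adjusted p = 0.278 and 0.636). D92, a lymphoma between the groups with a score of -0.68, had 11.82 for Cd8b1, above all high-score lymphomas. Its pan B cell list score of -2.53 was the lowest of all lymphomas, against -1.06 in D55 and -0.95 in D121. The T cell receptor list score of D92 was 0.94.

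Interferon gamma response genes passed in 4 cases, Igtp (0.71 ± 0.09, adjusted p = 3.58e-05), Irf1 (0.51 ± 0.08), Irgm1 (0.49 ± 0.10) and Gbp6 (0.38 ± 0.09). In the MHC class I list 4 passed, Tap1 (0.36 ± 0.08, adjusted p = 0.0115), Psmb9 (0.23 ± 0.06), Tapbp (0.32 ± 0.07) and B2m (0.34 ± 0.08). In the neutrophil list 0 slopes passed limma, with 10 positive at an unadjusted p below 0.05, and in the class II list 0 passed, with 0 at an unadjusted p below 0.05. For ribosome biogenesis 0 passed, with 2 negative at an unadjusted p below 0.05. For Myc the slope was -0.14 ± 0.11 (adjusted p = 0.705), for Reln 0.08 ± 0.62 (adjusted p = 0.977) and for Jchain 0.79 ± 0.46 (adjusted p = 0.592). Ell2, higher in the contrast, had a slope of -0.25 ± 0.35 (adjusted p = 0.869).

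Set beside the rest of the series, the high-score lymphomas were not the highest for the score. The 7 germinal centre lymphomas had scores of -0.17 to 3.31 with a median of 2.50, and the spleen had 0.27. Ranked among all 43 lymphomas, 4 of the 9 high-score lymphomas stayed among the 9 highest. Gzmb had levels of 5.36, 8.28 and 9.73 (lowest, median, highest) in the germinal centre lymphomas and 4.66 in the spleen. Cd8b1 had 5.07, 7.28 and 10.13 in the germinal centre lymphomas and 4.79 in the spleen. These values are given for orientation, and no difference between the high-score and the germinal centre lymphomas was tested.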

How the data were processed

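Total RNA of 43 lymphomas and 1 spleen had been hybridised to Affymetrix mouse arrays. The table deposited by the authors holds normalized log2 expression, 1 value for each probe set and array. RMA and affy are named in the submitters' processing notes, without versions. Arrays have no read depth, and the number of arrays limited the precision.

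Of 22690 probe sets, 64 were controls, 20380 had 1 gene symbol (20351 matched the GRCm38.p6 annotation by Entrez identifier), 691 had several and 1555 had none. A gene (12393 in all) was represented by its probe set of highest mean level. A gene was kept if at least 1 of the 36 ranked lymphomas lay above its array's median, which left 8431 genes. The 4 genes of the score were not tested.

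The contrast was fitted with limma 3.58.1 in R 4.3.3 on the 18 lymphomas with array set as a covariate, with trended eBayes, a two-sided test and a Benjamini-Hochberg threshold of 0.05 over 8427 genes (15 residual degrees of freedom). Array sets followed the title numbers, up to D117 and above, whose column medians differed. The slope fit used the 25 other lymphomas with 21 residual degrees of freedom. A list score averages all measured genes of a list except the 4 of the score, after the set mean of the 36 is subtracted. It includes genes that did not pass the filter. Named genes were the 4 genes of the score, the 12 largest differences in each direction past the threshold, the 4 members per list with the largest limma statistics, further called members of the T cell, cytotoxic, helper, checkpoint, interferon gamma, MHC class I, macrophage and B cell lists, and Myc, Mycn, Cdkn2a and Xist, of which the text names most. Adipoq, Col1a1, C1qa, Foxp3 and Ncr1 were given as cell type markers. The groups and 30 gene lists were chosen with earlier results of these data known. The pipeline was tested on simulated data. Alternatives changed the set term, filter, probe set, scaling, eBayes settings, group size, ranking, covariates and samples. Trp53 and Ddx3y were not analysed here. Promoter sequences are from RefSeq (GRCm38.p6).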

Additional observations from a re-analysis of the deposited data

Results flagged for a closer look

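In 276 groups of 9 values (138 named genes in the high-score and the low-score lymphomas), 21 held a value whose gap to its nearest neighbour exceeded Dixon's limit for its share of the group's range. Chance flags about 1 in 20 groups.

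Among high-score lymphomas D59 was highest for Adipoq at 11.24 (next 3.81), Col1a1 at 10.20 (next 5.11), Gpm6b at 9.08 (next 7.10) and Gbp6 at 7.59 (next 6.28). D52 was highest for Cxcr6 at 6.51 (next 5.75) and lowest for Myl4 at 4.47 (next 7.17). D85 was lowest for the class II genes H2-Aa at 10.79 (next 11.75) and H2-Ab1 at 9.97 (next 11.13). D89 was lowest for Jchain at 5.78 (next 8.87).

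Among low-score lymphomas D34 was highest for Cd3g at 8.55 (next 5.50) and Bcl6 at 6.68 (next 5.58), and lowest for Fhit at 6.06 (next 8.27), Igf2bp3 at 5.88 (next 7.79) and Ncr1 at 3.64 (next 3.92). D72 was highest for Gimap4 at 9.15 (next 6.81) and Gimap7 at 7.49 (next 6.15). D35 was highest for Adipoq at 6.63 (next 4.65) and lowest for Lat at 4.84 (next 5.91). D64 was lowest for Reln at 3.75 (next 8.70) and Ldha at 12.37 (next 12.60). D43 was highest for Ung at 9.49 (next 8.98).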

How the results depend on the processing

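Against 456 higher and 626 lower genes, no gene that the text calls higher or lower reversed its direction in any of 25 alternatives and 18 fits that each left out 1 lymphoma. These fits were not all distinct. Centring the score on all 43 lymphomas chose the same groups, so its result was fixed. Array set 1 alone, without D121 and without D135 were in effect 1 fit, with 322, 322 and 323 higher genes. Leaving out 1 lymphoma gave 309 to 501 higher and 405 to 714 lower genes, with 405 lower without D107 and 416 without D43. The counts were 224 and 118 without the array set term, 88 and 94 for 6 against 6, 132 and 100 for 12 against 12, and 785 and 940 for the slope over all 36. Ranked by Cd3d and Cd3e they were 44 and 14, and ranked among all 43 lymphomas 1093 and 1880. The stroma score as a covariate gave 948 lower genes and the pan B cell score 322. Without D55, D59 and D121 there were 218 and 223. Without D55 and D121, an alternative chosen after seeing the data, there were 246 and 337. The other alternatives stayed within 1.5 times both counts, and the cause of the shifts was not tested. Of the 120 named genes past the threshold, 80 kept their call in all 18 fits without 1 lymphoma. Lost in 10 to 16 of the 18 were Atp5a1, Creld2, Cd55, Ccnb2, Sirpa, Ldha, Irgm1, Aldoa, Cd274, Tapbp, Ltf, Igf2bp3, S100a9, Ebf1, Prtn3, Clec10a, Cd83, Kif20a, Erap1, Psmb10, Gadd45a and Tap2. Fitted with equal column medians, 397 genes were higher and 854 lower.

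The slope in the 25 other lymphomas, with 88 positive and 4 negative genes, gave 9 and 0 in the 18 lymphomas between the groups alone (209 and 100 at an unadjusted p below 0.05). Without the array set term it gave 85 and 0 in limma (535 and 50 unadjusted), and without a filter 108 and 16.

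No paired analysis was possible because the title numbers of the groups are those of different lymphomas and no number is shared. Signal near background limits the genes of rare cells, and the filter leaves these out.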
